A study of Mus musculus with 24 samples.

Results

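Probe ST_Mm_258 of the Steroltalk V2 array was examined in the livers of 4 mouse genotypes given pregnenolone-16α-carbonitrile (PCN) or vehicle. The platform annotation assigns it to Crebbp (Entrez gene 12914, chromosome 16), the gene for the CREB-binding protein CBP. All rows with this probe ID were taken on all 24 arrays, which gave 3 spots per array and 72 spots in all. It is 1 of 284 mouse probes on the array, 236 of which were bright enough to be tested. The probe was singled out because it read low after PCN in wild type livers and read less low in CAR-deficient livers. The values of those 2 genotypes, and the difference between them, are therefore given as descriptions without a test.

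CBP is a transcriptional coactivator and histone acetyltransferase, a close relative of p300. It binds CREB once that factor is phosphorylated, and with CREB it takes part in the fasting control of gluconeogenic genes in the liver. CBP and p300 also serve as coactivators of nuclear receptors. The constitutive androstane receptor (CAR, gene Nr1i3) and the pregnane X receptor (PXR, gene Nr1i2) are nuclear receptors that control drug-metabolizing genes in the liver, and PCN is a ligand of rodent PXR.

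The study asked how a PXR ligand alters liver gene expression with and without each receptor. The genotypes were CAR-deficient (CAR-/-), CAR/PXR-deficient (CAR/PXR-/-), PXR-deficient (PXR-/-) and wild type, with 6 arrays each, all from male C57BL/6J mice of 9 to 12 weeks. Livers were taken 12 h after an intraperitoneal injection of 40 mg/kg PCN or of the vehicle, 5% DMSO in corn oil. On every array RNA of PCN-treated liver carried Cy5 and a vehicle pool of the same genotype carried Cy3, with firefly luciferase RNA added as a spike. The labels describe neither the knockout alleles nor whether the 6 arrays of a genotype came from separate animals, and they say that RNA of 6 replicates was pooled without naming the channel. The p-values below thus measure the spread between these arrays, which may be technical. Dyes were never swapped, so a dye bias of the probe would enter each ratio.

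The hepatocyte gene Apoa1, which encodes the main protein of high-density lipoprotein, had the third highest mean level of the 236 tested probes (13.06 on the log2 intensity scale). It was the only one of 3 liver markers with a named probe. The Nr1i3 probe averaged 7.59 in Cy3 of CAR-deficient livers, 7.69 in CAR/PXR-deficient, 7.83 in PXR-deficient and 7.94 in wild type livers (log2 intensity, n = 6 each). The Nr1i2 probe was not lower where PXR was lacking, with Cy3 means of 8.20 in CAR/PXR-deficient and 7.83 in PXR-deficient livers, against 7.49 in wild type livers. Where these probes lie relative to the deleted parts of the genes is not given, so they do not check the labels. Cyp3a11, a PXR target that encodes a drug-oxidizing cytochrome P450, had a PCN log2 ratio of 2.23 in CAR-deficient, -0.37 in CAR/PXR-deficient, 0.30 in PXR-deficient and 2.94 in wild type livers. Across arrays, median foreground intensity ran from 109 to 891 in Cy5 and from 175 to 1042 in Cy3.

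The Crebbp probe was read in the middle of the array's brightness range. Its mean level over both channels and all arrays was 8.54 on the log2 intensity scale, rank 122 of 236 from the lowest. None of its 72 spots was flagged or held saturated pixels. In each channel 68 of 72 spots had over 50% of their pixels above background, and at least 2 of 3 spots passed that mark on all 24 arrays. The SD of the 3 spots on an array ran from 0.003 to 0.46 on the log2 ratio scale, with a median of 0.087. The widest set was that of wild type replicate 2, where the spots ran from -1.24 to -0.32.

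Because the study turns on receptors that bind DNA, the 250 bases upstream of the Crebbp start are shown for reference. They come from RefSeq, build GRCm38.p6, chr16:4213405-4213654, minus strand, and are written 5′ to 3′. The nuclear receptor half-sites AGGTCA and AGTTCA were searched on both strands. Neither was found, so the window stands in lower case throughout.
Crebbp: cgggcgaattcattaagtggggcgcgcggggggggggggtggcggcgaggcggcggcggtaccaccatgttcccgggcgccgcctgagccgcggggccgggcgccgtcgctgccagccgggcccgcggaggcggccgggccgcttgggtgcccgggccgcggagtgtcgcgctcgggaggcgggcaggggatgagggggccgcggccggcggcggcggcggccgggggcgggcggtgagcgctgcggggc
Windows of the same length upstream of 32851 genes held AGGTCA in 14% and AGTTCA in 11.8% of cases. The Crebbp window is 84% G and C, against a median of 52.4% over all windows. The absence of both half-sites concerns these letters in this window only.

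In wild type livers the Crebbp probe read lower after PCN on every array, and in the 3 receptor-deficient genotypes it read close to the vehicle level. The log2 ratio of PCN over vehicle ran from -0.33 to 0.03 in CAR-deficient livers, with a median of -0.12. It ran from -0.21 to -0.04 in CAR/PXR-deficient livers, with a median of -0.13, and from -0.30 to 0.40 in PXR-deficient livers, with a median of -0.12. In wild type livers it ran from -0.74 to -0.32, with a median of -0.50. Of the 18 receptor-deficient arrays, 17 lay above every wild type array, and 16 of 18 nevertheless lay below 0. The wild type arrays led to the choice of the probe, so that separation is no test. Over all 236 tested probes, full separation above wild type was seen in 1.27% for CAR-deficient, 7.63% for CAR/PXR-deficient and 9.32% for PXR-deficient arrays. In bulk liver, fewer cells of a type and less RNA per cell cannot be told apart.

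**Figure D1:**
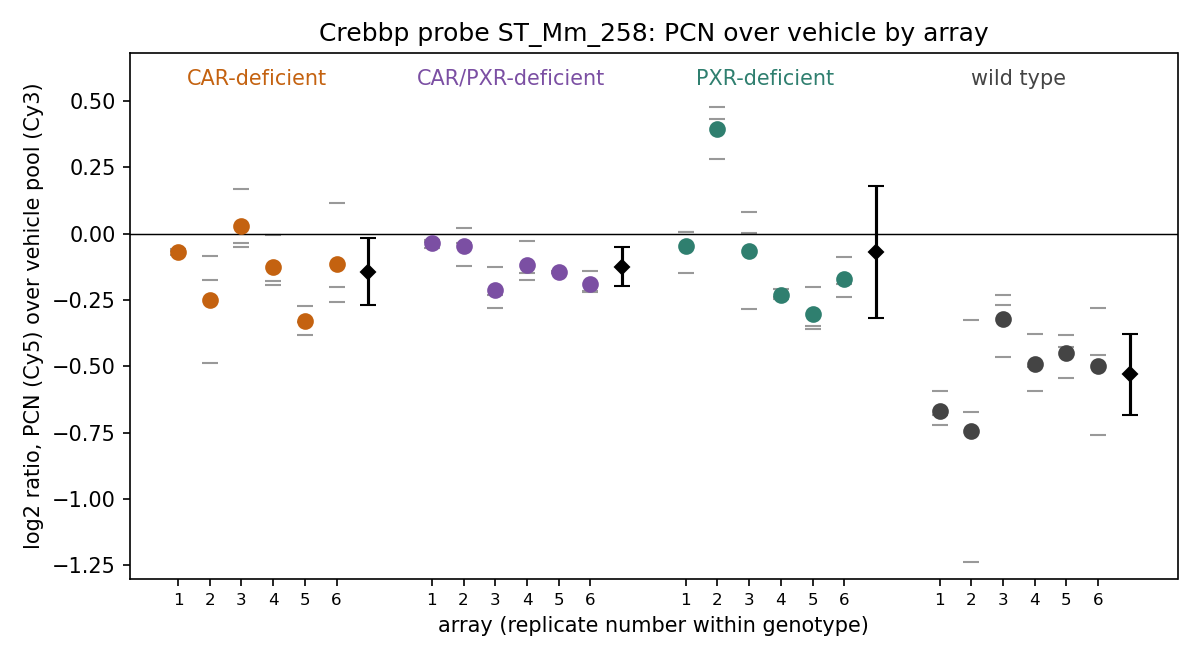
Log2 ratio of PCN (Cy5) over vehicle pool (Cy3) for the Crebbp probe on each of 24 arrays, by genotype, with dots for arrays, grey ticks for the 3 spots of an array and diamonds with bars for the mean ± SD of 6 arrays. The wild type arrays sit between -0.74 and -0.32, and 1 PXR-deficient array stands alone at 0.40.

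CAR-deficient livers averaged a log2 ratio of -0.14 ± 0.13 and wild type livers -0.53 ± 0.15 (SD, n = 6 each). Expressed against the vehicle pool, the PCN level was 90.5% in CAR-deficient livers and 69.3% in wild type livers. The 6 CAR-deficient arrays read -0.07, -0.25, 0.03, -0.13, -0.33 and -0.12 for replicates 1 to 6. The 6 wild type arrays read -0.67, -0.74, -0.32, -0.49, -0.45 and -0.50. The ranges touched: CAR-deficient replicate 5 lay just below wild type replicate 3, and the other 5 CAR-deficient arrays lay above all 6 wild type arrays. Of the 236 tested probes, 1.27% had all 6 CAR-deficient arrays above all 6 wild type arrays, and this probe was not among them.

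The mean difference, CAR-deficient minus wild type, was 0.39 on the log2 scale, against a median difference of -0.03 over all tested probes. It was the thirteenth largest of 236 in size. Limma called 3 of the 236 tested probes in this contrast, 1.27% in either direction, with 0.847% lower and 0.424% higher. This probe was the higher one, but it was chosen by its values in this contrast, so that call is no test of it. Whether it stood among the called probes depended on the processing, and it did so under 4 of 17 other settings and in 5 of 12 fits that left out 1 array of either genotype. It did not without CAR-deficient replicate 1, 2, 3 or 6 or without wild type replicate 1, 2 or 4. Limma called 0 probes in this contrast with arrays centred on their medians (19 at an unadjusted p under 0.05), on the control probes (3) or in the authors' deposited table (27). With the processing reported here, 39 probes had an unadjusted p under 0.05. Nothing is read from that share for this probe. The other called probes were those of Cyp3a41a at -0.91 and Cyp3a13 at -0.44, both cytochrome P450 genes. The next probe in order of adjusted p, just outside the threshold, has no gene name here and a difference of 0.32. In wild type livers the ratio was the seventh lowest of 236, where 37.7% of tested probes were called in either direction and 16.5% lower.

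The difference depended on the source of the values. In the authors' deposited table the Crebbp probe averaged -0.19 in CAR-deficient livers, with arrays between -0.42 and 0.09. In the same deposited table it averaged -0.36 in wild type livers, with arrays between -0.45 and -0.29. The difference from the authors' deposited table was 0.177, and 3 of 6 CAR-deficient arrays there lay above all wild type arrays. Array medians in the authors' deposited table ran from -0.33 to 0.16, and how it was scaled and centred is not stated. After each array's median was subtracted from the authors' deposited table, the means were -0.16 in CAR-deficient livers and -0.39 in wild type livers.

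In PXR-deficient livers the PCN level was 95.2% of vehicle, a log2 ratio averaging -0.07 ± 0.25 (SD, n = 6). The arrays read -0.05, 0.40, -0.07, -0.23, -0.30 and -0.17 for replicates 1 to 6. Below 0 lay 5 of the 6 values, and 1 array, replicate 2, stood well above the others. The mean did not pass the threshold against 0 (limma, 95% interval -0.21 to 0.07, adjusted p = 0.408), in a genotype where 39% of the 236 tested probes were called, 19.5% in each direction. With the normalization used here, this outcome depended on replicate 2. Without it the mean was -0.164 with an adjusted p of 0.0308, and with arrays weighted by quality it was -0.158 with an adjusted p of 0.00644. Centring on the control probes gave no call with or without it, and centring on array medians gave none with it. Centred on the control probes the mean was 0.016, with an adjusted p of 0.993 (limma). Without replicate 2 that centring gave -0.225, with an adjusted p of 0.105. Centred on array medians, where replicate 2 read 0.04, the mean of all 6 arrays was -0.111, with an adjusted p of 0.204. A fit without replicate 2 was not run under that centring.

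In CAR/PXR-deficient livers the PCN level was 91.7% of vehicle, a log2 ratio averaging -0.13 ± 0.07 (SD, n = 6). The arrays read -0.04, -0.05, -0.21, -0.12, -0.15 and -0.19 for replicates 1 to 6. All 6 values were below 0, and their SD was the smallest of the 4 genotypes. The mean did not pass the adjusted threshold (limma, 95% interval -0.26 to 0.01, adjusted p = 0.175), where 22.5% of tested probes were called, 10.6% higher and 11.9% lower. A fit on this genotype alone passed it, with an adjusted p of 0.0383, as did quality weights, with an adjusted p of 0.0168. The exact two-sided sign-flip permutation test over the 6 arrays gave an unadjusted p of 0.0312, the smallest it can give. In the authors' deposited table the CAR/PXR-deficient mean was 0.00, and centred on the control probes it was -0.19 with an adjusted p of 0.356.

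CAR/PXR-deficient minus PXR-deficient livers gave a difference of -0.05 (limma, SE 0.09, 95% interval -0.25 to 0.14, adjusted p = 0.677). Among all tested probes 41.5% were called in this contrast, 24.2% higher and 17.4% lower. The ranges of both genotypes overlapped, and without PXR-deficient replicate 2 the difference was 0.039 with an adjusted p of 0.735. Centred on the control probes it was -0.206, with an adjusted p of 0.449. The interval extends to both sides of 0, so these arrays do not exclude a difference of either sign within it.

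Set beside the same wild type arrays, the mean ratio was higher by 0.39 in CAR-deficient, 0.40 in CAR/PXR-deficient and 0.46 in PXR-deficient livers. These 3 differences share the wild type arrays that led to the choice of the probe, so they carry no test. All 6 CAR/PXR-deficient arrays lay above all 6 wild type arrays, as did 7.63% of tested probes in that comparison. All 6 PXR-deficient arrays did so too, although the lowest, at -0.30, was close to the highest wild type array, at -0.32. There 9.32% of tested probes were placed that way. In the order of mean ratios, wild type stood lowest, followed by CAR-deficient, CAR/PXR-deficient and PXR-deficient livers. The last 3 means lay closer together than the SD of the CAR-deficient or the PXR-deficient arrays.

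Split by channel, the genotype means differed in both dyes. These differences were not tested, and in Cy5 that between CAR-deficient and wild type livers was smaller than the CAR-deficient SD. The Cy5 level, from PCN-treated livers, averaged 8.43 ± 0.32 in CAR-deficient, 8.51 ± 0.19 in CAR/PXR-deficient, 8.50 ± 0.32 in PXR-deficient and 8.29 ± 0.09 in wild type livers (log2 intensity, SD, n = 6 each). The Cy3 level, from the vehicle pools, averaged 8.57 ± 0.22 in CAR-deficient, 8.63 ± 0.15 in CAR/PXR-deficient, 8.57 ± 0.20 in PXR-deficient and 8.82 ± 0.12 in wild type livers. Wild type thus had the lowest mean in the PCN channel and the highest mean in the vehicle channel. CAR-deficient minus wild type was 0.14 in Cy5 and -0.25 in Cy3. With each channel centred on the median of the tested probes, a setting chosen after seeing the data, these differences were 0.16 and -0.21.

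The groups overlapped within each channel. In Cy3, 5 of 6 CAR-deficient arrays, 4 of 6 CAR/PXR-deficient arrays and 4 of 6 PXR-deficient arrays lay below all wild type arrays. In Cy5, 3 of 6 CAR-deficient arrays, 4 of 6 CAR/PXR-deficient arrays and 4 of 6 PXR-deficient arrays lay above all wild type arrays. How often other tested probes were placed this way in each channel is not given here, so these counts are descriptions only. Cy5 values of CAR-deficient livers ran from 7.98 to 8.98, a wider range than the 8.16 to 8.40 of wild type livers. The Cy3 values of wild type livers ran from 8.69 to 8.99, and the Cy3 RNA of all arrays of a genotype is labelled as that genotype's pool. Pool and genotype cannot be told apart in this channel.

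**Figure D2:**
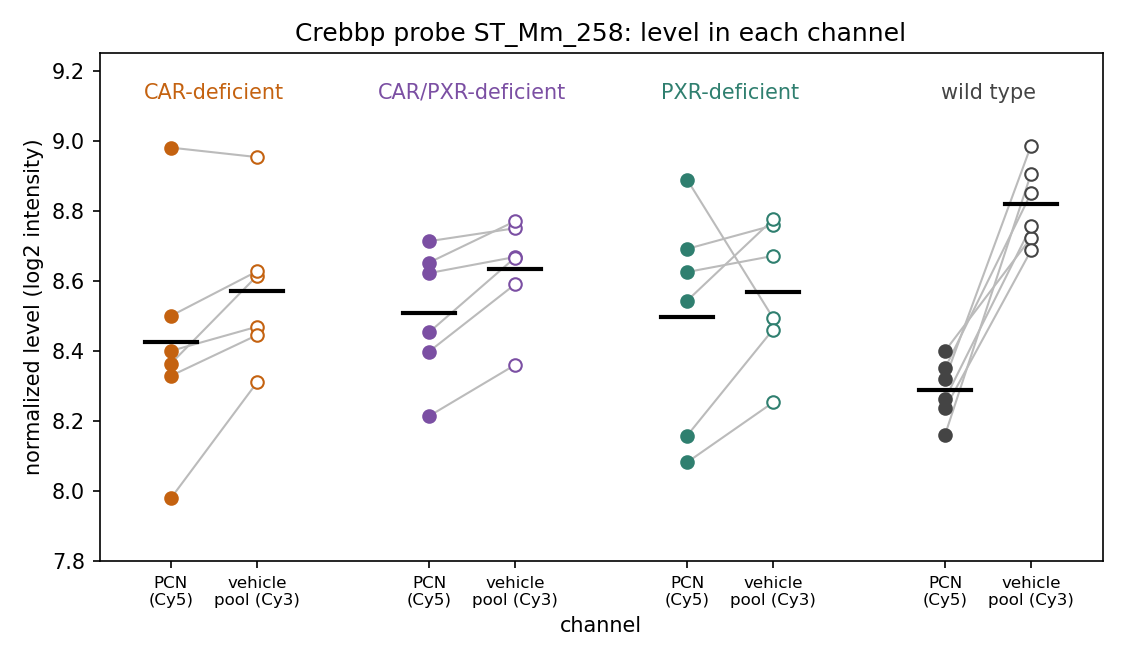
Normalized log2 intensity of the Crebbp probe in the PCN channel (Cy5, filled) and the vehicle pool channel (Cy3, open) of each array, by genotype, with a line joining both channels of an array and a bar at each mean. Wild type has the lowest Cy5 mean, 8.29, and the highest Cy3 mean, 8.82.

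The arrays were scanned at 2 places on the slide, read from the spot coordinates, with 3 arrays of each genotype at each place. At the place with the higher coordinates the mean ratio was -0.12 in CAR-deficient and -0.48 in wild type livers. At the other place it was -0.16 in CAR-deficient and -0.58 in wild type livers. CAR-deficient minus wild type was 0.357 at the first place and 0.415 at the second. The probe was chosen by this contrast, so its presence at both places is no test. Limma called 0 of the 236 tested probes in this contrast at either place.

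Under the other processing settings the wild type mean ratio stayed the lowest of the 4. It ran from -0.653 to -0.365, while the CAR-deficient mean ran from -0.276 to -0.124, arrays left out singly aside. The lowest wild type value came from centring on the control probes, which moved the median of all tested probes by -0.14 in CAR-deficient, -0.15 in CAR/PXR-deficient, 0.10 in PXR-deficient and -0.20 in wild type livers. Relative to the median of all tested probes under that centring the Crebbp probe read -0.13 in CAR-deficient, -0.08 in CAR/PXR-deficient, -0.05 in PXR-deficient and -0.45 in wild type livers.

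**Figure D3:**
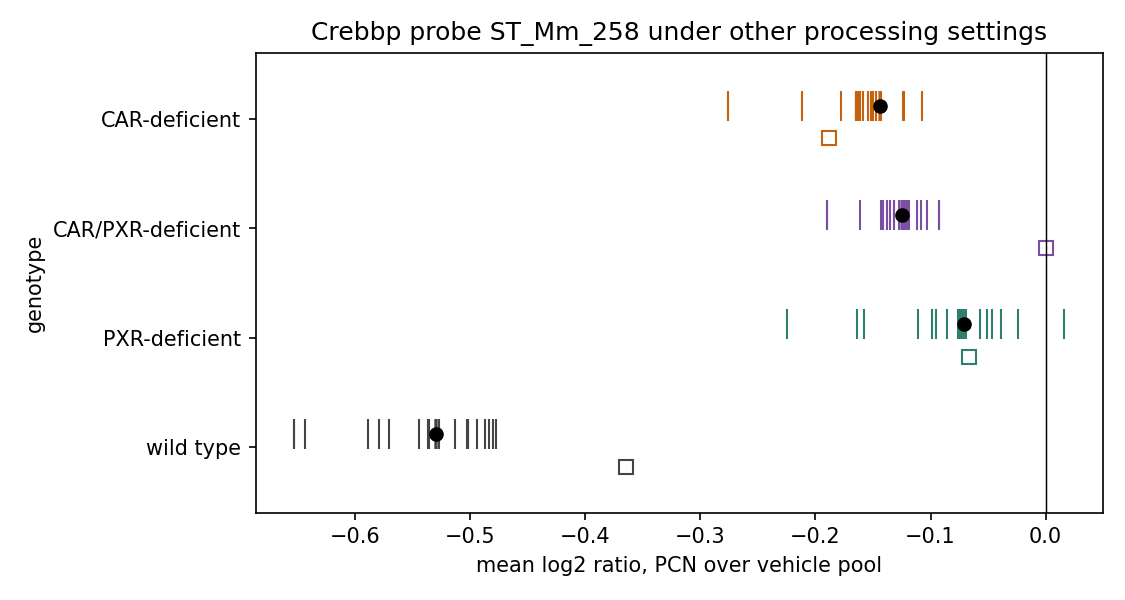
Mean log2 ratio of PCN over vehicle pool for the Crebbp probe in each genotype, with a black dot for the value reported here, ticks for the other settings and for arrays left out singly, and an open square for the authors' deposited table. Wild type ticks end at -0.653, and its square lies at -0.365.

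The probe most like Crebbp over the 24 arrays was ST_Mm_252, which the annotation used here does not name. The Pearson r of their log2 ratios was 0.85 (Spearman's rho 0.74), against a median r of 0.03 between Crebbp and all tested probes. Its mean ratio was 0.09 in CAR-deficient, -0.05 in CAR/PXR-deficient, 0.04 in PXR-deficient and -0.20 in wild type livers. The next 2 probes, at r = 0.81 and r = 0.80, have no gene name here either. All points share the array, its normalization and the genotype, so these are descriptions. Without PXR-deficient replicate 2 and wild type replicate 2, the 2 arrays farthest from the median of ST_Mm_252, r was 0.72.

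**Figure D4:**
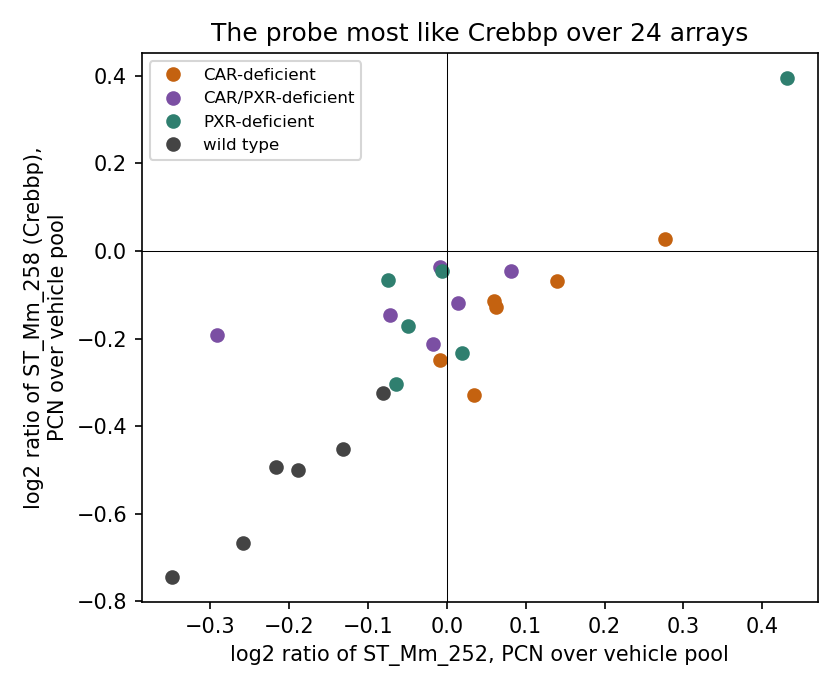
Log2 ratio of PCN over vehicle pool for ST_Mm_252 (horizontal) and the Crebbp probe (vertical), 1 dot per array, coloured by genotype. The wild type arrays form the lower left of the cloud, and PXR-deficient replicate 2 lies alone at the upper right.

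With each genotype's mean subtracted, so that only the spread among its arrays remained, ST_Mm_252 was again first (r = 0.84). Next came C4bp, a complement regulator made in the liver, and Ppargc1a, which encodes the coactivator PGC-1α of the fasting response, both at r = 0.77. C4bp had a mean ratio of -0.27 in CAR-deficient, 0.22 in CAR/PXR-deficient, -0.16 in PXR-deficient and -0.68 in wild type livers. Ppargc1a had -0.60 in CAR-deficient, -0.35 in CAR/PXR-deficient, -0.27 in PXR-deficient and -0.63 in wild type livers by this probe. Its other probe gave -0.67, -0.38, -0.25 and -0.71 in the same genotypes. The C4bp means, like those of Crebbp, were lower in wild type than in CAR-deficient livers, while both Ppargc1a probes had nearly equal means there.

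Genes of the array's main themes had mostly smaller or positive ratios in wild type livers, where 21.2% of tested probes were called higher and 16.5% lower. Of 4 tested genes of drug metabolism 2 were called higher and 0 lower (limma). They were Cyp3a11 at 2.94 and Alas1, the first enzyme of heme synthesis, at 0.36. Of 5 tested genes of cholesterol synthesis 2 were called higher and 0 lower, Srebf2, a sterol-regulated transcription factor, at 0.28 and Lss, lanosterol synthase, at 0.20. Of 6 genes of bile acid metabolism 1 was higher, the repressor Nr0b2 at 0.18, and 1 lower, the hydroxylase Cyp27a1 at -0.17. The 2 tested clock genes, Per2 at 0.04 and Cry1 at -0.07, passed in neither direction. None of these genes had a wild type ratio below that of Crebbp. The Crebbp probe was chosen for its low wild type ratio, so nothing is read from that order.

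In CAR-deficient livers, where 6.78% of tested probes were called higher and 10.2% lower, drug metabolism had 2 genes higher and 1 lower, the efflux pump Abcb1a at -0.41. The bile acid genes had 2 lower, the bile salt export pump Abcb11 at -0.45 and the hydroxylase Cyp8b1 at -0.16, while cholesterol and clock genes had 0 calls in either direction. In CAR/PXR-deficient livers, where 10.6% of tested probes were called higher and 11.9% lower, 1 drug metabolism gene was lower, the export pump Abcc2 at -0.34. There 1 gene each of the cholesterol, bile acid and clock lists was higher, Fdps at 0.22, the bile acid receptor Nr1h4 at 0.22 and Cry1 at 0.19. In PXR-deficient livers, where 19.5% of tested probes were called in each direction, Abcc2 was higher at 0.40 and Abcb1a lower at -0.61, and 2 bile acid genes were called in each direction, with Abcb11 lower at -0.71. Of the cholesterol genes 1 was higher there, Insig1, a brake on sterol synthesis, at 0.46, and 1 lower, Lss at -0.23. Crebbp itself was called in neither of these last 2 genotypes.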

How the data were processed

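Liver RNA was measured on 24 two-colour arrays, 6 per genotype, grouped by sample titles. The deposited scanner tables give, per the file headers, the intensity of the Cy5 and Cy3 foreground and background for 1440 spots, the percent of pixels above background and of saturated pixels, and spot flags; no normalization is recorded. The authors' deposited value table holds log2 ratios, taken as such from its match to the scanner ratios; its scaling is not stated and it served as an alternative. Gene symbols came from GEO's platform annotation, which can be old (147 of 284 mouse probes have 1 symbol, 137 have none and 0 have several).

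Background was removed from foreground medians by limma's normexp method with an offset of 50 (limma 3.58.1, R 4.3.3). The correction failed on 1 of 48 channels, Cy5 of CAR/PXR-deficient replicate 6, whose background is 0; that channel received the offset only. Log2 ratios were normalized by global loess within arrays (span 0.3, 4 iterations), and the 3 spots were averaged. Channel levels were taken after Aquantile normalization between arrays. Tested were the 236 probes with over 50% of pixels above background in 50% or more of spots and of arrays in 1 genotype or more. All 24 arrays entered 1 limma model (lmFit, eBayes) with a term for each genotype and Benjamini-Hochberg adjustment over 236 probes and a threshold of 0.05. Precision is limited by the number of arrays. The genes named are the 3 probes most correlated with Crebbp, over all arrays and after removal of genotype means, where the annotation names them, plus the listed genes. Lists were probed as annotated: 4 of 9 drug metabolism, 5 of 10 cholesterol, 6 of 7 bile acid, 2 of 9 clock and 1 of 3 hepatocyte genes were tested. The probe and the lists were chosen with earlier results of these data known. Replicate numbers were not treated as pairs: in none of the 6 genotype pairs did every same-numbered pair of arrays correlate above 0.1 in deviations from genotype means.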

Additional observations from a re-analysis of the deposited data

Results flagged for a closer look

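The log2 ratio of the Crebbp probe on PXR-deficient replicate 2 was 0.395, far from the next of the 6 PXR-deficient arrays at -0.046. It was singled out because this gap exceeds Dixon's 95% critical value for 6 samples, in 1 of 12 checks made over the ratio and both channel levels of the 4 genotypes. Its 3 spots ran from 0.28 to 0.48, so all lay above the other PXR-deficient arrays. With each array centred on the median of its unflagged mouse spots its ratio was 0.04, and in the authors' deposited table it was -0.14. Centred on the control probes it was 1.22, on an array where the median of all tested probes was then 1.15. It also had the lowest quality weight of the 24 arrays, 0.15.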

How the results depend on the processing

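Each result was recomputed under other processing settings, without each array in turn, and under settings chosen after seeing the data (slide position, spots not above background left out). The PXR-deficient ratio was 0.016 when centred on the control probes (not called), -0.158 with array weights (called) and -0.164 to -0.024 with single arrays left out, called only without PXR-deficient replicate 2. The CAR/PXR-deficient ratio was -0.132 with array weights and -0.125 in a fit on that genotype only, past the adjusted threshold in both; the exact permutation test of the same -0.125 gave an unadjusted p of 0.0312. It was -0.19 when centred on the control probes, 0 in the authors' deposited table and -0.143 to -0.108 with single arrays left out. CAR/PXR-deficient minus PXR-deficient changed sign without a call with array weights (0.027), in the authors' deposited table (0.067) and without PXR-deficient replicate 2, both as normalized (0.039) and centred on the controls (0.034); it was -0.206 centred on the controls with that array kept, and -0.101 to 0.039 with single arrays left out. The CAR-deficient ratio was -0.276 when centred on the control probes, with and without PXR-deficient replicate 2, and -0.178 to -0.107 with single arrays left out. In the authors' deposited table the wild type ratio was -0.365 and CAR-deficient minus wild type 0.177; with single arrays left out these ran from -0.571 to -0.487 and from 0.343 to 0.427. The cause of these changes was not tested.

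With the replicate number as a block the estimates were -0.071 for PXR-deficient livers (adjusted p = 0.446, limma), -0.125 for CAR/PXR-deficient livers (adjusted p = 0.213) and -0.054 for the difference (adjusted p = 0.7), so none of these 3 calls changed; CAR-deficient minus wild type stayed at 0.386, though the probe was then not called. Over all 36 same-numbered pairs of arrays, deviations correlated at -0.52 to 0.29, and 5 of 36 were best matched by their own number. Counts of called probes, single arrays left out included, ran from 30 to 101 in PXR-deficient (92 as reported), 21 to 88 in CAR/PXR-deficient (53), 8 to 67 in CAR-deficient (40) and 15 to 100 in wild type livers (89), from 36 to 119 for CAR/PXR-deficient minus PXR-deficient (98) and from 0 to 11 for CAR-deficient minus wild type (3). Centred on the control probes, 38 were higher and 4 lower for PXR-deficient (46 and 46 as reported), 20 and 12 for CAR/PXR-deficient (25 and 28), 5 and 13 for CAR-deficient (16 and 24) and 9 and 20 for wild type livers (50 and 39), and 16 and 31 for CAR/PXR-deficient minus PXR-deficient (57 and 41). Centred on array medians, 37 and 19 were called for PXR-deficient livers and 29 and 32 for that difference. Spots were 3 per array and the signal of the probe over background ran from 91.7 to 548.7 in Cy5, which limits how small a ratio can be resolved.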
